A study of Homo sapiens with 4 samples.

Results

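The genes described here are DLK1 and 9 genes of the Notch pathway, namely the receptors NOTCH1, NOTCH2 and NOTCH3, the ligands JAG1, JAG2, DLL1 and DLL3, and the target genes HES1 and HEY1. They were chosen by name, with earlier results of these data known. Of the 10, 9 are among the 14884 genes that the annotation of the array names. Each of the 10 had 1 probe set. For 9 genes the probe set was named by the platform annotation, and for HES1 it was named only by the study's own result table, which was held for its 1999 rows of lowest p. HES1 therefore has a name here because its p was low, and its values are a description. Total RNA of parental Hap1 control cells (2 arrays) and of Baz2B-KO cells (2 arrays) was hybridised to Affymetrix Human Gene 2.0 ST microarrays. Hap1 is a near-haploid human line of leukaemic origin, and Baz2B-KO is a single line made from it in which CRISPR-Cas9 removed a short stretch of a coding exon of BAZ2B, a regulatory subunit of ISWI chromatin remodelers. Both lines were kept in IMDM with serum, were handled separately and were trypsinized. Whether the 2 arrays of a line represent separate cultures is not stated, so that p-values measure the spread between arrays, which may be technical, and 1 edited line against 1 parental line leave the loss of Baz2B and any other difference between these lines impossible to separate.

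Notch receptors are cleaved at the cell surface after they bind a ligand of the Jagged or Delta-like type on a neighbouring cell. The freed intracellular part enters the nucleus, joins the DNA-binding protein RBPJ and a Mastermind protein, and switches on target genes, chiefly the HES and HEY repressors. DLK1 is a transmembrane protein with EGF-like repeats that resembles the Delta ligands but lacks their receptor-binding DSL domain, and is counted among the non-canonical ligands. It is an imprinted gene, high in the embryo and in progenitor cells of fat, liver and muscle, and low in most adult tissues.

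The values are log2 intensities after RMA, which corrects the background, gives all arrays a like distribution and summarises each probe set. Array medians lay between 3.53 and 3.55, and over the 11235 tested probe sets the arrays correlated at 0.983 to 0.992. Probe sets were tested if they exceeded 3.5 in at least 2 arrays, called here the intensity limit, and had a gene name in the platform annotation. BAZ2B itself has no named probe set and was not analysed here. Of 9 blood cell markers, 6 had a probe set, with intensities between 2.53 and 4.78. Of these, 2 were tested, GATA1 (4.63 to 4.78) and SPI1 (4.21 to 4.59), and neither passed. CD34 lay between 3.26 and 3.77 and CD14 between 2.53 and 2.90. Of 6 epithelial markers, 5 had a probe set, 4 of them tested (KRT18, KRT8, KRT19 and EPCAM) and CLDN4 below the limit, and KRT18 read 7.59 to 7.87 on one probe set and 5.24 to 5.76 on another. Of the hepatic progenitor markers, AFP and ALB stayed below 2.73 on every array, while TTR, APOA1 and HNF4A lay between 3.76 and 4.68. HNF4A was named only by the study's result table for its low p. The log2 fold changes were 0.14 (TTR), -0.56 (APOA1) and 0.27 (HNF4A). TTR and APOA1 were tested, and neither passed. Of 5 neural markers with a probe set, SOX2 (8.18 to 8.44) and NES (6.59 to 7.11) were above the limit and PAX6, DCX and STMN2 below it. For 4 of these 5 (SOX2, NES, PAX6 and DCX) both Baz2B-KO arrays lay below both controls. Of all tested probe sets 15.9% did so, a share that leaves out dim probe sets such as those of PAX6 and DCX. The mean log2 intensities of the list were 4.65 and 4.74 in the control and 4.39 and 4.47 in Baz2B-KO. Only SOX2 and NES were tested, and neither passed. The part of these markers in the results on DLK1 and Notch genes was not tested. In RNA from a whole culture, fewer cells that express a gene and less RNA per cell cannot be told apart. With 2 arrays against 2 no permutation can give a two-sided p below 0.333, so that all p-values come from limma's model across the tested probe sets.

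DLK1 was higher in Baz2B-KO, and none of the other 7 tested genes passed the test. On the 2 control arrays DLK1 (probe set 16788475) had log2 intensities of 4.13 and 4.47, and on the 2 Baz2B-KO arrays it had 5.73 and 5.55. The lines did not overlap, and the smallest difference between a Baz2B-KO and a control array, 1.08, was larger than the gap of 0.34 between the controls and that of 0.18 between the Baz2B-KO arrays. The means were 4.30 ± 0.239 (SD, n = 2) and 5.64 ± 0.128 (SD, n = 2), with a log2 fold change of 1.34 (SE, standard error, 0.146, 95% interval 0.99 to 1.68, limma adjusted p = 0.010), or 2.52-fold. This was the ninth largest rise, rank 9 of the 11235 tested probe sets. Of these probe sets 0.668% passed the test, 0.276% as higher and 0.392% as lower in Baz2B-KO, and among the 8 tested genes described here the count was 1 higher and 0 lower. The 1 is DLK1, which was already known from earlier results of these data, so that this count is a description. Before adjustment 4 of the 8 (DLK1, NOTCH1, NOTCH3 and DLL1) had a p under 0.05, as did 9.85% of all tested probe sets. The call on DLK1 rested on both controls: without control replicate 1 its adjusted p was 0.132 and without control replicate 2 it was 0.0895 (limma). When all 27722 probe sets above the intensity limit were tested, named or not, the adjusted p of DLK1 was 0.152, with the same log2 fold change.

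**Figure D1:**
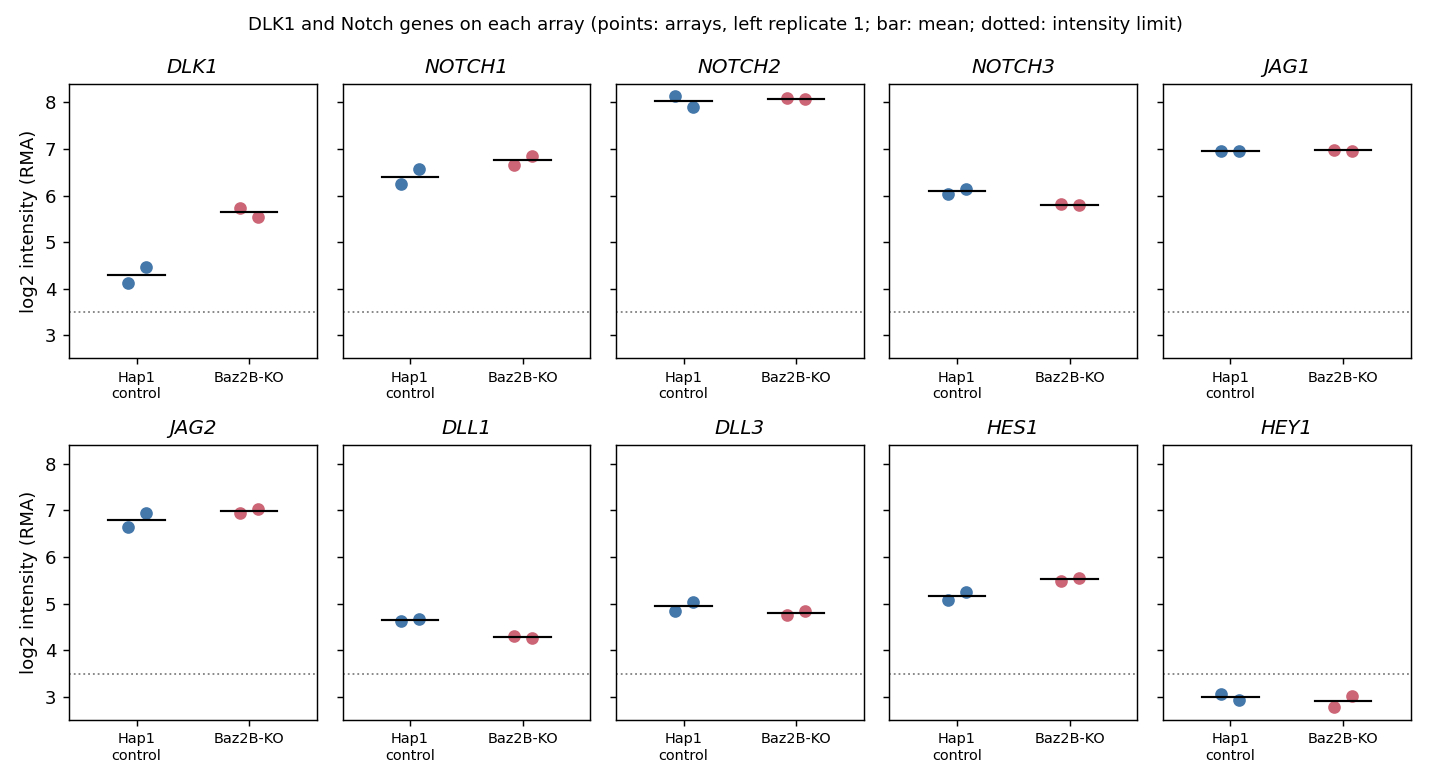
Log2 intensity (RMA, vertical axis) of the 10 genes on each of the 4 arrays, with points for the arrays, a horizontal bar for the mean of each line and a dotted line at the intensity limit of 3.5. The 2 Baz2B-KO points of DLK1, at 5.73 and 5.55, lie above both controls at 4.13 and 4.47, and all 4 points of HEY1 lie below the limit.

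None of the 3 Notch receptor genes passed the test, and their log2 fold changes lay on both sides of 0. NOTCH1 (probe set 17100036), which encodes the broadly expressed founding member of the family, had 6.24 and 6.56 in the control and 6.65 and 6.86 in Baz2B-KO. Both Baz2B-KO arrays lay above both controls, by as little as 0.087, while the controls lay 0.32 apart. The log2 fold change of NOTCH1 was 0.35 (SE 0.145, 95% interval 0.0097 to 0.69, limma adjusted p = 0.499). NOTCH3 (probe set 16869769), a receptor best known from vascular smooth muscle, had 6.04 and 6.15 in the control and 5.81 and 5.80 in Baz2B-KO. Both Baz2B-KO arrays of NOTCH3 lay below both controls, and the log2 fold change was -0.29 (SE 0.110, 95% interval -0.54 to -0.03, limma adjusted p = 0.452). NOTCH2 (probe set 16691668) had 8.13 and 7.91 in the control and 8.09 and 8.06 in Baz2B-KO, so that both Baz2B-KO arrays fell between the controls. Its log2 fold change was 0.05, with a 95% interval of -0.23 to 0.34. NOTCH4, the receptor gene outside the 10, had a log2 fold change of 0.19 with overlapping arrays (limma adjusted p = 0.762).

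Among the canonical ligands, which carry the DSL domain, DLL1 had the lowest log2 fold change and JAG1 the value nearest to 0. DLL1 (probe set 17025989), a Delta-like ligand gene, had 4.63 and 4.67 in the control and 4.31 and 4.27 in Baz2B-KO. Here the arrays of each line lay within 0.043 of each other and the lines at least 0.33 apart. The log2 fold change of DLL1 was -0.36 (SE 0.107, 95% interval -0.61 to -0.11, limma adjusted p = 0.309), so that DLL1 did not pass the test over all probe sets. DLL3 (probe set 16862078), which encodes a divergent ligand that acts mainly inside the cell that makes it, had 4.84 and 5.04 in the control and 4.76 and 4.84 in Baz2B-KO. The arrays of DLL3 overlapped, and its log2 fold change was -0.14 (95% interval -0.43 to 0.14). JAG1 (probe set 16917183), a Jagged ligand gene, had 6.95 and 6.95 in the control and 6.99 and 6.95 in Baz2B-KO. Its 4 arrays spanned 0.040, and although both Baz2B-KO arrays were nominally above both controls, the smallest difference was 0.0030. The log2 fold change of JAG1 was 0.02 (95% interval -0.23 to 0.27). JAG2 (probe set 16797241), the other Jagged gene, had 6.65 and 6.94 in the control and 6.93 and 7.03 in Baz2B-KO, with a log2 fold change of 0.19 (95% interval -0.12 to 0.50). DLL4, the remaining canonical ligand gene, had one of -0.16 (limma adjusted p = 0.806).

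Over the 8 tested genes, both Baz2B-KO arrays lay above both controls for 3 (DLK1, NOTCH1 and JAG1), below both for 2 (NOTCH3 and DLL1), and the arrays overlapped for 3 (NOTCH2, JAG2 and DLL3). Over all tested probe sets, 21.9% had both Baz2B-KO arrays above and 15.9% had both below, 37.8% in all. The median log2 fold change of the 8 genes was 0.04, against 0.02 over all tested probe sets.

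**Figure D2:**
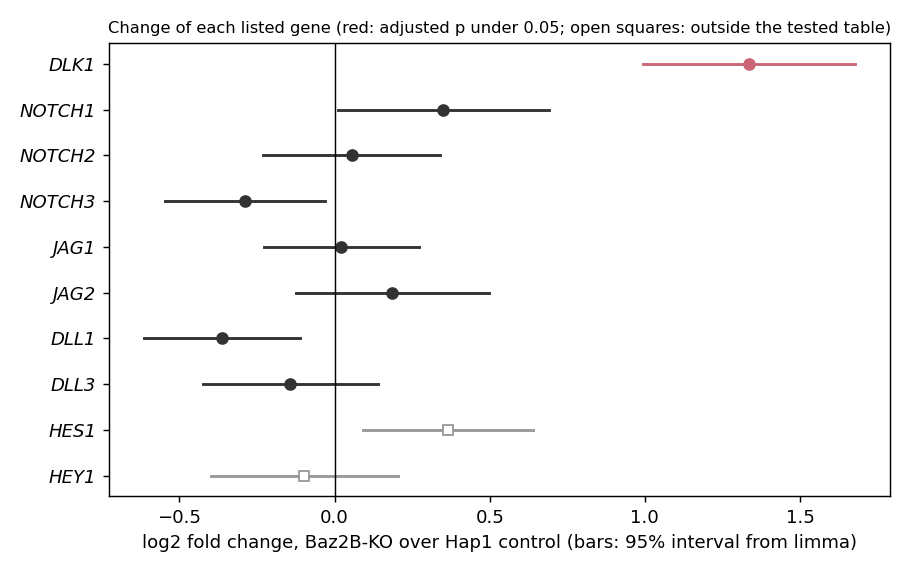
Log2 fold change (horizontal axis, Baz2B-KO over Hap1 control) of the 10 genes with 95% intervals from limma. The interval of DLK1, 0.99 to 1.68, lies apart from those of the other genes, and open squares mark HES1 and HEY1, which were outside the tested table.

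Of the target genes, HES1 was brighter on both Baz2B-KO arrays and HEY1 was not above the intensity limit on any array. HES1 (probe set 16949759), a bHLH repressor that is the best known direct target of Notch, had 5.07 and 5.24 in the control and 5.49 and 5.56 in Baz2B-KO. The lines did not overlap and lay at least 0.24 apart, with a gap of 0.17 between the controls. The log2 fold change of HES1 was 0.37 (SE 0.117) with an adjusted p of 0.353 from limma when added to the tested probe sets, so that HES1 did not pass the test although a low p had brought it into the named rows. HEY1 (probe set 17078452), a related repressor of blood vessels and heart, had 3.06 and 2.94 in the control and 2.78 and 3.03 in Baz2B-KO. The arrays of HEY1 overlapped, and its log2 fold change was -0.098 (SE 0.128). RMA shrinks differences near the background, and whether it did so for HEY1 was not tested.

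Of the 10 genes of the HES and HEY family, 7 were tested, none passed, and the median log2 fold change was -0.05. HEY2, a repressor gene of the heart and its vessels, had the largest, with 3.28 and 3.53 in the control and 4.04 and 3.89 in Baz2B-KO. Both Baz2B-KO arrays of HEY2 lay above both controls, and it had a log2 fold change of 0.56 (SE 0.131, limma adjusted p = 0.178). One of its controls lay under the intensity limit. HES7, an oscillating gene of somite formation, came next with -0.28 (limma adjusted p = 0.635). HES2 (-0.05), HES3 (0.0021), HES4 (-0.10), HES6 (-0.06) and HEYL (0.20) had overlapping arrays, and HES5 lay below the intensity limit on all arrays.

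The promoters of the target genes were searched for a sequence feature, apart from the array values. The promoter table of RefSeq (GRCh38.p14) holds 250 bases before and 50 after each annotated start, and was searched on both strands for the sequence that RBPJ prefers, GTGGGAA, and for its core TGGGAA, which lies within it. The longer form occurs in 6.25% of all 35116 promoter windows and the core in 24.0%. Of 9 HES and HEY genes with a counted window, 5 held the longer form, namely HES1, HES4, HES5, HEY2 and HEYL. Of 6 genes with a counted window in the list of other targets, 0 held the longer form and 1 held the core. No window was counted for HEY1, or for CCND1, MYC, SNAI2 and SOX9 of the other targets. Some genes have no window in the promoter table, and the windows of 1 chromosome were left out of the counts. The counts thus cover part of each list, whereas the shares are of all windows. Of the 6 genes described here with a counted window (NOTCH1, NOTCH2, NOTCH3, JAG1, JAG2 and HES1), HES1 alone held either form. The stretches that hold the matches are shown to set this feature beside the values of these genes, with the core in capitals (TTCCCA where it lies on the other strand).
HES1, chr3:194136044-194136103, plus strand: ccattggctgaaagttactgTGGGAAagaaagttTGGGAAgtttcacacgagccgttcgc
HES4, chr1:1000148-1000193, minus strand: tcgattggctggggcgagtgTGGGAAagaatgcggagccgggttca
HEYL, chr1:39639717-39639841, minus strand: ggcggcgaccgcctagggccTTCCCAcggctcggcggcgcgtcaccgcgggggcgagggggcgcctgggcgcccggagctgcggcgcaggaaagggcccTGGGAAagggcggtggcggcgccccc
HES5, chr1:2530318-2530507, minus strand: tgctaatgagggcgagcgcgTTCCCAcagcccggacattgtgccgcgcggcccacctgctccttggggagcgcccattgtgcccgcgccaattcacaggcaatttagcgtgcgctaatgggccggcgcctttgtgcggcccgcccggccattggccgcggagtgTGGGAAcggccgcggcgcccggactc
HEY2, chr6:125749399-125749654, plus strand: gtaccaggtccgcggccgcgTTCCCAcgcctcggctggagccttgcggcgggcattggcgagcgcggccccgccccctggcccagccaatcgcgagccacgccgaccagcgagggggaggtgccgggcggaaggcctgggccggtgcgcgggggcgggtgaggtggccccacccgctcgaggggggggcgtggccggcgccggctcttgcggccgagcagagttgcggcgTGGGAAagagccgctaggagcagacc
In HES1 the 2 cores start 14 bases apart on one strand, 84 and 70 bases before the annotated start. HES5, HEY2 and HEYL have 1 core on each strand, 144, 210 and 79 bases apart. On the arrays, the genes with the longer form had log2 fold changes of 0.37 (HES1), 0.56 (HEY2), 0.20 (HEYL) and -0.10 (HES4). HES5 lay below the limit, and the arrays of HEYL and of HES4 overlapped. Whether the match has a part in these values was not tested. A match describes the letters of the window and not a bound site.

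The rest of the Notch pathway was described with lists by role, 110 genes in all, of which 82 were tested. Of the 82, 1 was higher (DLK1), 2 were lower (MFAP2 and GATA3) and 79 did not pass, where 0.276% of all tested probe sets were higher and 0.392% lower. The lists were chosen with earlier results of these data known, so that these counts are a description. The median log2 fold change of the 82 was 0.03, against 0.02 over all tested probe sets. Of the non-canonical ligand genes, 3 of 9 were tested, with DLK1 higher and MFAP2 lower. MFAP2, which encodes a microfibril protein reported to bind Jagged and Notch, had 4.37 and 4.29 in the control and 2.61 and 3.22 in Baz2B-KO, both of the latter under the intensity limit. MFAP2 thus entered the test only through the controls and had to differ to be there. Its log2 fold change of -1.41 (SE 0.193, limma adjusted p = 0.027) is set against values near the background and is a description. DLK2, the paralog of DLK1, had 6.41 and 6.69 in the control and 6.37 and 6.64 in Baz2B-KO. The arrays of DLK2 overlapped and its log2 fold change was -0.05 (limma adjusted p = 0.967). The contactin genes CNTN1 and CNTN6, DNER, CCN3 and MFAP5 were below the intensity limit and outside the tested table. Their log2 fold changes, near the background, were -0.78 (CNTN1), 0.18 (CNTN6), 0.26 (DNER), 0.43 (CCN3) and -0.12 (MFAP5). 

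GATA3, a T-cell and epithelial transcription factor gene that Notch switches on in T helper cells, had 5.90 and 5.73 in the control and 5.01 and 4.88 in Baz2B-KO. The lines did not overlap, and GATA3 had a log2 fold change of -0.87 (SE 0.120, limma adjusted p = 0.028). Of the 7 tested genes in the list of other targets, GATA3 was the one that passed. NRARP, a feedback inhibitor of Notch, had a log2 fold change of 0.05, MYC one of -0.14 and the cyclin gene CCND1 one of -0.25. CDKN1A, a cell cycle inhibitor gene, was named only by the study's result table for its low p, with 4.92 and 4.85 in the control, 5.49 and 5.57 in Baz2B-KO and an adjusted p of 0.0654 from limma. Like those on all tested probe sets, the calls on MFAP2 and GATA3 were lost with either control left out. GATA3 was also lost with either Baz2B-KO array left out. With an array left out the log2 fold change ran from -1.72 to -1.11 for MFAP2 and from -0.96 to -0.78 for GATA3. Both genes were lost with all probe sets above the limit tested (adjusted p = 0.240 for MFAP2 and 0.213 for GATA3, from limma). They were also lost with no intensity filter (adjusted p = 0.0653 for each, from limma).

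**Figure D3:**
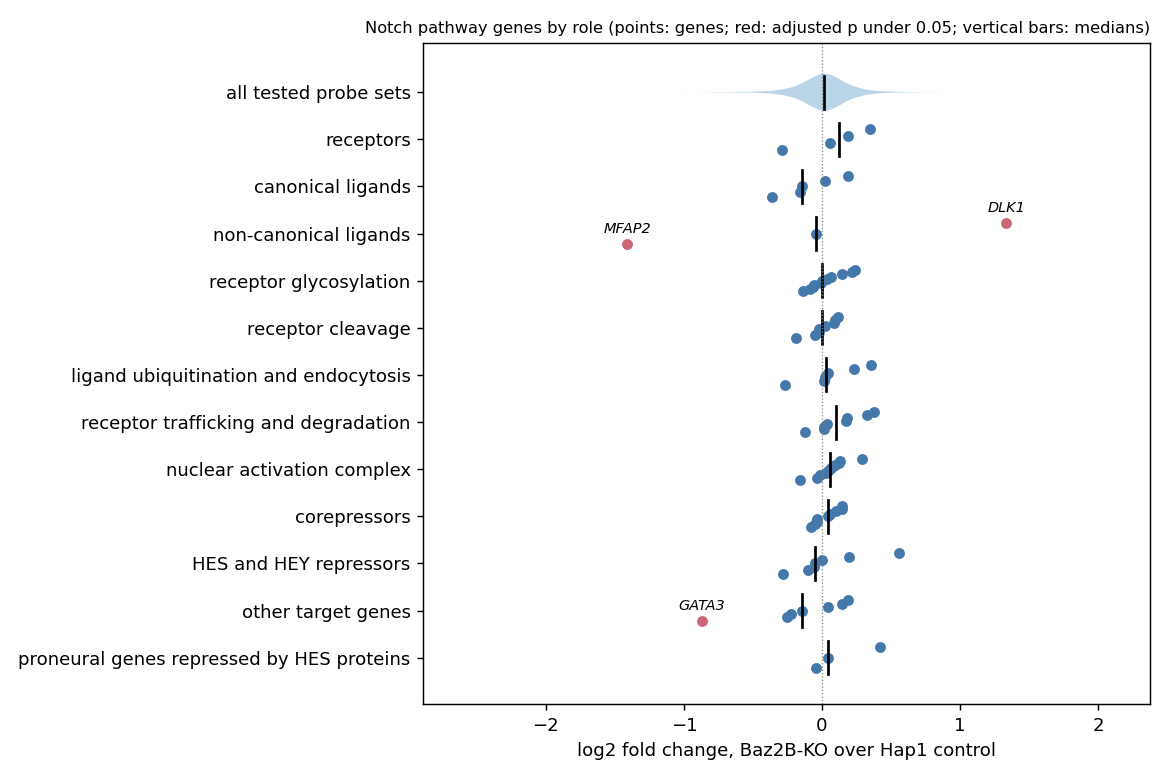
Log2 fold change (horizontal axis, Baz2B-KO over Hap1 control) of the tested Notch pathway genes by role, 1 point per gene, with vertical bars at the median of each list and the distribution of all tested probe sets on top. DLK1 at 1.34, MFAP2 at -1.41 and GATA3 at -0.87, in red, passed the test.

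None of the genes that modify, cut or move the receptors and ligands passed the test. All 11 glycosylation genes were tested, with log2 fold changes between -0.14 and 0.24. The O-fucosyltransferase gene POFUT1 had -0.0087, the O-glucosyltransferase genes POGLUT1 and POGLUT2 had 0.06 and 0.15, and EOGT and GXYLT2 had the largest with 0.24 and 0.22. Of the 9 cleavage genes, 8 were tested and lay between -0.19 and 0.12. They include FURIN (0.12), the surface proteases ADAM10 (0.09) and ADAM17 (-0.02), and the gamma-secretase subunit gene NCSTN (-0.19). The 6 genes for ubiquitination and uptake of ligands lay between -0.27 (MIB1) and 0.35 (MIB2), ubiquitin ligase genes that act on ligands, with 0.23 for NEURL1. The 8 tested genes for receptor trafficking and degradation had a median of 0.10. DTX1, a ubiquitin ligase gene that is itself a Notch target, had 4.08 and 4.29 in the control and 4.56 and 4.58 in Baz2B-KO. The arrays of DTX1 did not overlap, and its log2 fold change was 0.38 (SE 0.120, limma adjusted p = 0.348). The related DTX4 had 0.33, the endocytic adaptor genes NUMB and NUMBL had -0.12 and 0.17, and the ligase gene ITCH had 0.02. FBXW7, whose product marks the active Notch fragment for decay, was named only by the study's result table for its low p, with 5.83 and 5.47 in the control and 6.11 and 6.22 in Baz2B-KO.

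None of the nuclear genes of the pathway passed. All 11 genes of the activation complex were tested, between -0.16 and 0.29, with a median log2 fold change of 0.06. RBPJ had 6.44 and 6.34 in the control and 6.32 and 6.38 in Baz2B-KO, with a log2 fold change of -0.03 with a 95% interval of -0.29 to 0.22. The Mastermind genes MAML1 and MAML2 had 0.13 and 0.06, the acetyltransferase gene CREBBP had 0.29 and the cyclin gene CCNC had -0.16. Of 17 corepressor genes, 9 were tested, and they lay between -0.08 and 0.14. KDM5A had -0.03, CTBP1 0.14, CTBP2 -0.05 and L3MBTL3 0.14. Of 6 proneural genes, which HES proteins repress, 3 were tested and none passed. ATOH1 had 4.47 and 4.38 in the control and 4.78 and 4.93 in Baz2B-KO, with a log2 fold change of 0.42 (limma adjusted p = 0.269), and NEUROG2 and NEUROG3 had -0.04 and 0.04.

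DLK1 lies on chromosome 14 at one end of an imprinted locus, in which DLK1 and RTL1 are made from the paternal copy and the long non-coding RNA MEG3, small nucleolar RNAs and a large group of microRNAs from the maternal copy. None of the other tested genes of the locus, or of those flanking it, passed the test. MEG3 was below the intensity limit on all arrays for both of its probe sets, and the brighter one had 3.22 and 3.05 in the control and 3.22 and 3.07 in Baz2B-KO. RTL1, a retrotransposon-derived gene, had 4.88 and 4.98 in the control and 4.88 and 4.83 in Baz2B-KO. Its log2 fold change was -0.08 (95% interval -0.34 to 0.18), and a dimmer probe set of RTL1, below the limit, had 0.32. The long non-coding RNA gene MEG9 had -0.14 for its brighter probe set and 0.34 for its dimmer one, which disagreed in direction (adjusted p = 0.853 and 0.535 from limma). The 5 tested flanking genes WDR25, BEGAIN, WARS1, EVL and YY1 lay between -0.11 and 0.03. PPP2R5C, a phosphatase subunit gene beyond the other end of the locus that was named only by the study's result table for its low p, had 4.74 and 4.34 in the control and 4.11 and 3.41 in Baz2B-KO, with a difference of -0.78 (SE 0.234, limma adjusted p = 0.324).

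Of 93 microRNA and small nucleolar RNA genes of the locus, 51 had a probe set and 11 were tested, none of which passed. For 5 of the 11 both Baz2B-KO arrays lay above both controls and for 0 they lay below, where 21.9% and 15.9% of all tested probe sets did so. Their median log2 fold change was 0.11. The 4 with the largest log2 fold changes, MIR665, MIR134, MIR127 and MIR431, were named after their values were seen. MIR665 had 4.17 and 4.12 in the control and 4.68 and 4.63 in Baz2B-KO, with a log2 fold change of 0.51 (SE 0.108, limma adjusted p = 0.136). MIR134 had 0.40 (adjusted p = 0.261), MIR127 had 0.33 (adjusted p = 0.389) and MIR431 had 0.33 (adjusted p = 0.486, all from limma). MIR431 and MIR127 are antisense to RTL1. The array reads the precursor and cannot tell the arms of a hairpin apart. The mature RNAs that RefSeq (GRCh38.p14) lists for these 4 genes are shown with the seed, bases 2 to 8, in capitals, because they had the largest log2 fold changes among the 11 tested. Among probe sets below the limit, MIR1185-2 and MIR1197 had larger ones, both 0.55.
hsa-miR-665: aCCAGGAGgcugaggccccu
hsa-miR-134-5p: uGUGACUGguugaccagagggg
hsa-miR-134-3p: cCUGUGGGccaccuagucaccaa
hsa-miR-127-5p: cUGAAGCUcagagggcucugau
hsa-miR-127-3p: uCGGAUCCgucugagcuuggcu
hsa-miR-431-5p: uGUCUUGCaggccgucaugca
hsa-miR-431-3p: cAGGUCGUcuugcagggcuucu
The 7 sequences have 7 different seeds, so that none of them share a seed family.

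**Figure D4:**
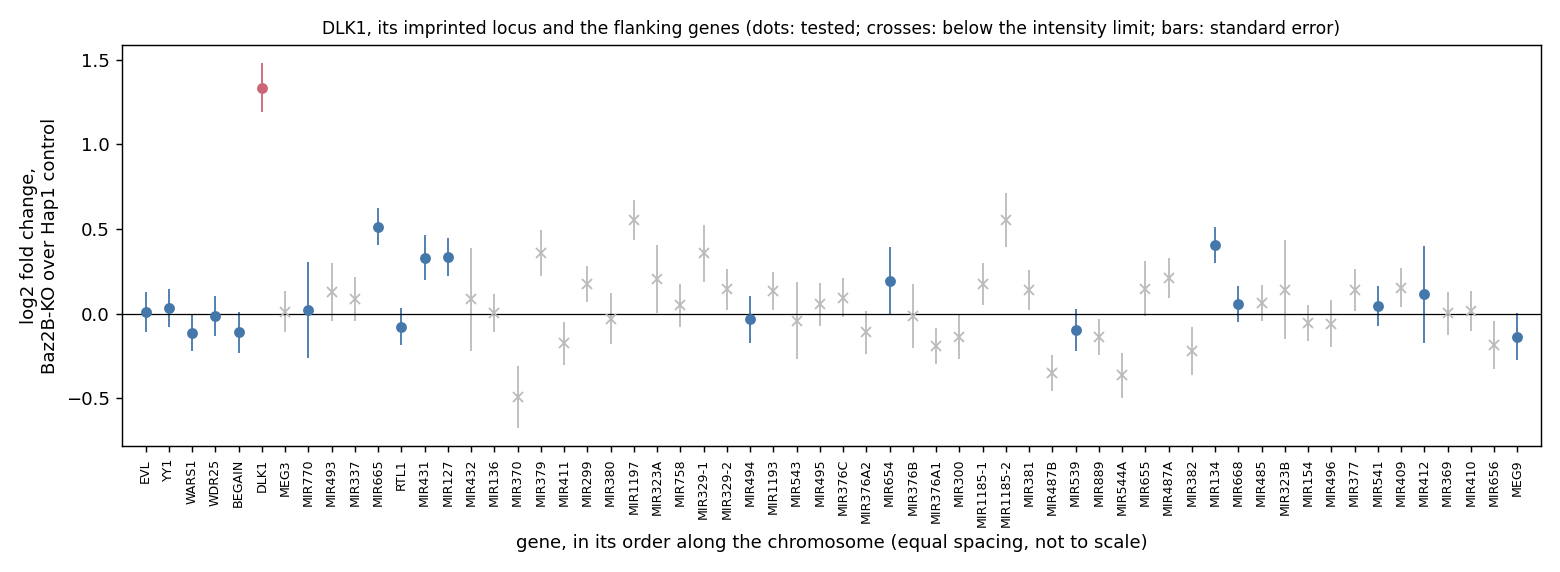
Log2 fold change (vertical axis, Baz2B-KO over Hap1 control, bars for the standard error) of DLK1, the other genes of its imprinted locus and the genes flanking it, in chromosomal order along the horizontal axis with equal spacing. DLK1, at 1.34, stands above its neighbours, and crosses mark probe sets below the intensity limit. The flanking gene PPP2R5C, named only by the study's result table, is not drawn.

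The 5 tested genes whose profile over the 4 arrays was nearest to that of DLK1 were BMP3, PCDHB5, HOXD13, LPAR4 and GLYATL2. Nearness was the Euclidean distance between profiles centred on their own mean, and it ranged from 0.235 for BMP3 to 0.293 for GLYATL2. BMP3, which encodes a secreted bone morphogenetic protein, had 3.78 and 4.30 in the control and 5.60 and 5.52 in Baz2B-KO. In DLK1 and in all 5 genes, the first control was the lower one and the first Baz2B-KO array the higher one. The protocadherin gene PCDHB5 had log2 intensities of 5.99 and 6.19 in the control and 7.22 and 7.20 in Baz2B-KO. The homeobox gene HOXD13 (log2 fold change 1.48), the lysophosphatidic acid receptor gene LPAR4 (1.38) and the glycine acyltransferase-like gene GLYATL2 (1.18) completed the set. Both controls of LPAR4 (3.23 and 3.25) and of GLYATL2 (2.84 and 2.85) lay under the intensity limit, so that both genes entered the test only through Baz2B-KO. The likeness rests on 4 arrays of 2 lines and is mostly the size of the difference between them, and none of the 5 is a Notch pathway gene of the lists.

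**Figure D5:**
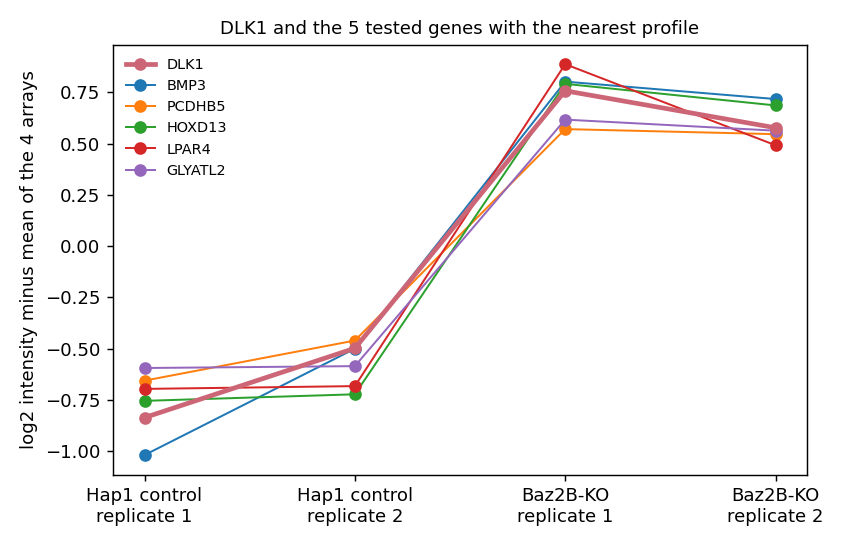
Log2 intensity minus the mean of the 4 arrays (vertical axis) for DLK1 (thick line) and the 5 tested genes of nearest profile, on each array (horizontal axis), with lines that only join the points of a gene. All 6 genes lie below 0 on both controls and above 0 on both Baz2B-KO arrays.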

How the data were processed

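RNA of 2 Hap1 control and 2 Baz2B-KO samples, grouped by their labels, was profiled with the Affymetrix Human Gene 2.0 ST microarray. The authors processed the scans with oligo and RMA, whose versions are not given in the sources used here. As deposited, the values are log2 intensities for 53617 probe sets, before any filter. Near the background RMA compresses differences, and dim probe sets can show smaller fold changes than the RNA has. The number of arrays limits the precision.

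As in the study's methods, 27722 probe sets with values over 3.5 on 2 or more arrays were retained. The study named genes through AnnotationDbi, and here the platform annotation (16098 named probe sets) was used instead. The 11235 retained probe sets with 1 gene there were tested with limma 3.58.1 in R 4.3.3 (lmFit and eBayes, no covariates, Benjamini-Hochberg over all tested probe sets, threshold 0.05). A probe set named only by the study's result table took its prior from the main fit and was ranked among the tested p-values as 1 more. That table also holds the authors' fold changes and p-values, which were not used. Where a gene had several probe sets, the brightest on average stands for it. Named were the 10 genes, genes of the lists that passed, the first 3 tested and the 2 largest absolute changes of each role list, the locus genes with a probe set and the 5 profiles nearest to DLK1. The fit was tested on simulated data. The genes and lists were chosen with earlier results of these data known. Alternatives were other intensity filters, all retained probe sets, an intensity trend, robust eBayes, 2 scalings, a replicate block, each array left out and averaging a gene's probe sets. Promoter and microRNA sequences came from RefSeq tables of GRCh38.p14. Figures were drawn with matplotlib 3.10.9.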

Additional observations from a re-analysis of the deposited data

How the results depend on the processing

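The log2 fold change of DLK1 stayed between 1.17 and 1.5 when each array was left out, and DLK1 passed in 2 of these 4 fits, those without a Baz2B-KO array. It did not pass with all retained probe sets tested (1.34, adjusted p = 0.152 from limma) or with the replicate block (1.34, adjusted p = 0.0603 from limma), and passed in the other 7 settings. The count over all probe sets, 75, was 41 with no intensity filter and 26 with all retained probe sets tested. With no intensity filter 1 of the Notch pathway genes (DLK1) passed. The count was 69 with the intensity limit raised to 4.5 and 78 with an intensity trend. With robust eBayes the count was 80, and with each array minus its median the count was 102. It was 0 without control replicate 1 (935 at an unadjusted p under 0.05) and without control replicate 2 (1419), 38 without KO replicate 1 and 42 without KO replicate 2. A fit of 3 arrays has 1 sample in a group, which is assumed to vary like the others. Of the tested genes among the 10, 0 passed with all retained probe sets tested and 0 to 1 with an array left out, and of the Notch pathway genes 0 and 0 to 2. The numbers in the sample titles are shared by the lines, but no source says that they pair the samples, and the deviations of the first arrays correlated at 0.158. With the replicate block 38 probe sets, 0 of the 10 genes and 0 pathway genes passed (MFAP2 0.0759 and GATA3 0.0583, adjusted p from limma).

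Values near 0 turned their sign in single settings. With each array minus its median POFUT1 had 0.0016, and with its probe sets averaged MEG9 had 0.10. With an array left out the log2 fold change ran from -0.058 to 0.17 for NOTCH2, -0.19 to 0.096 for DLK2, -0.033 to 0.016 for POFUT1, -0.055 to 0.18 for POGLUT1, -0.047 to 0.23 for ADAM10 and -0.18 to 0.13 for ADAM17. It ran from -0.075 to 0.11 for ITCH, -0.083 to 0.014 for RBPJ, -0.048 to 0.17 for MAML2, -0.085 to 0.016 for KDM5A, -0.17 to 0.065 for CTBP2 and -0.041 to 0.33 for L3MBTL3. It ran from -0.16 to 0.058 for HES2, -0.21 to 0.22 for HES3, -0.24 to 0.026 for HES4, -0.089 to 0.18 for NRARP, -0.24 to 0.16 for NEUROG2 and -0.31 to 0.037 for MEG9. The cause of these shifts was not tested. No value for HES1 was computed with an intensity trend, robust eBayes or averaged probe sets.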

Other observations

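DLK1 is also known as preadipocyte factor, which holds back the formation of fat cells. Of 8 adipogenic genes, 3 had a probe set. PPARG, the nuclear receptor gene that drives fat cell formation, had 5.44 and 5.50 in the control and 5.38 and 5.33 in Baz2B-KO, with a log2 fold change of -0.12 (SE 0.108, limma adjusted p = 0.831). The lipase gene LPL stayed below the intensity limit on every array and the lipid droplet gene PLIN1 exceeded it on 1 control array.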
